A study of Mus musculus with 183 samples.

Results

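The early phase of RNA decay was examined in mouse embryonic stem cells (mESCs) of clone 5F, as the share of each transcript left after 120 min without transcription, in cells labelled day 4 of 4-hydroxytamoxifen (4OHT) against cells at day 0. These are 11 of the 47 libraries of the half-life experiment, in a series of 183 samples, and they were chosen by clone and time alone. Mock libraries of day 0 (n = 3) and of day 4 (n = 3) stand for 0 min, and the libraries at 120 min comprise replicates 1 and 3 of day 0 (n = 2) and replicates 1 to 3 of day 4 (n = 3). The remaining replicate of day 0 at 120 min was not analysed here.

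The labels give every library of clone 5F the genotype Rosa26Cre-ERT2/- Skiv2l fl/fl, so the day 0 cells carry the floxed alleles and the recombinase too. CreERT2, expressed from the Rosa26 locus, is a recombinase that enters the nucleus when 4OHT binds it, and 0.1 µM 4OHT was given for 4 days to remove the exons of Skiv2l between the loxP sites. Actinomycin D, which blocks transcription, was added for 120 min, and mock cells received DMSO for 360 min. The line is 1 clone, and the methods call the replicates technical, so p-values measure only the spread between these libraries.

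SKIV2L is the helicase of the cytoplasmic Ski complex, which feeds RNA to the exosome for decay from the 3′ end. Short-lived mRNAs are largely those of regulators whose protein must change quickly. Replication-dependent histone mRNAs are unusual, as they end in a stem-loop instead of a poly(A) tail and are degraded within minutes once DNA synthesis stops.

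Library totals ranged from 24440935 to 34114250 counts. The count over the whole Skiv2l gene did not fall. The mock libraries held 147, 147 and 148 CPM (counts scaled to the library total) of Skiv2l at day 0 and 153, 132 and 144 CPM at day 4, a log2 difference of -0.01 over the whole gene. Such a count includes the exons outside the loxP sites, so it cannot show whether those between them were removed. The methods state that recombination was checked by RT-qPCR or western blot. As the counts used here do not show the deletion, the treated libraries are called libraries labelled day 4. Markers of embryonic stem cells summed to 4062 to 4079 CPM in mock libraries at day 0 and to 3750 to 3830 CPM in those labelled day 4. Primitive endoderm markers summed to 813 to 856 CPM in mock libraries at day 0 and 791 to 844 CPM in those labelled day 4, with 0 of 8 under 1 CPM. Neural and mesoderm progenitor markers summed to 90.1 to 92.0 CPM and 108 to 118 CPM in the same libraries. Fibroblast markers summed to at most 9.78 CPM, and 5 of 7 stayed under 1 CPM, Col1a2 and Col3a1 among them. Markers of rare 2-cell-like cells summed to 3.28 to 4.86 CPM in mock libraries at day 0 and 11.0 to 13.1 CPM in those labelled day 4, and their part in the results was not tested. At 120 min, mRNA counts per ERCC spike-in count were 237 and 239 at day 0 but 173 to 210 in the libraries labelled day 4, whereas the mock ranges overlapped (316 to 341 and 304 to 330). Mitochondrial rRNA took 0.280% to 1.69% of a library, lowest in replicate 1 labelled day 4 at 120 min and highest in replicate 3 of day 0 at 120 min, and its part in the results was not tested.

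The share left is the normalized count at 120 min as a percentage of the mean of the mock libraries of the same day. Its change is log2 of the share labelled day 4 over the share at day 0, so 1 is a 2-fold larger share, and a gene with a positive change that passed the test is called slower. Changes were tested as the interaction of day with time by edgeR's quasi-likelihood F test with p-values adjusted after Benjamini-Hochberg, at a threshold of 0.05. Of 17328 genes tested, 56 decayed more slowly in the libraries labelled day 4 (0.323%) and 9 faster (0.0519%). At an unadjusted p under 0.05 there were 663 positive and 738 negative changes, and DESeq2 called 63 slower and 27 faster. The median change over all genes was -0.01, which the scaling within each time point keeps small.

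The median share left over the 10910 genes with a mean mock count of at least 100 was 59.5% and 60.2% in the day 0 libraries, and 56.7%, 59.3% and 59.2% in those labelled day 4. The means of 59.9% ± 0.544 (SD, n = 2) and 58.4% ± 1.46 (SD, n = 3) lay about 1 SD of the second group apart. An exact permutation test gave p = 0.2, two-sided, the smallest value that 2 against 3 libraries can reach. Size factors were set within each time point over both days, which holds the typical gene nearly equal. Neither these medians nor the test can therefore show a shift of all mRNAs. With each library's own spike-ins the medians lay further apart, as given at the end. Replication-dependent histone mRNAs stood apart from the typical gene. Summed over the 61 tested, 0.992% and 1.12% were left at day 0, but 24.1%, 20.1% and 23.4% in the libraries labelled day 4. Every library labelled day 4 thus lay far above both day 0 libraries, with means of 1.06% ± 0.0939 (SD, n = 2) and 22.5% ± 2.15 (SD, n = 3), a ratio of 21.3, and again the smallest exact permutation p of 0.2. Leaving out any 1 library kept the mean between 21.7% and 23.7% in the libraries labelled day 4.

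**Figure D1:**
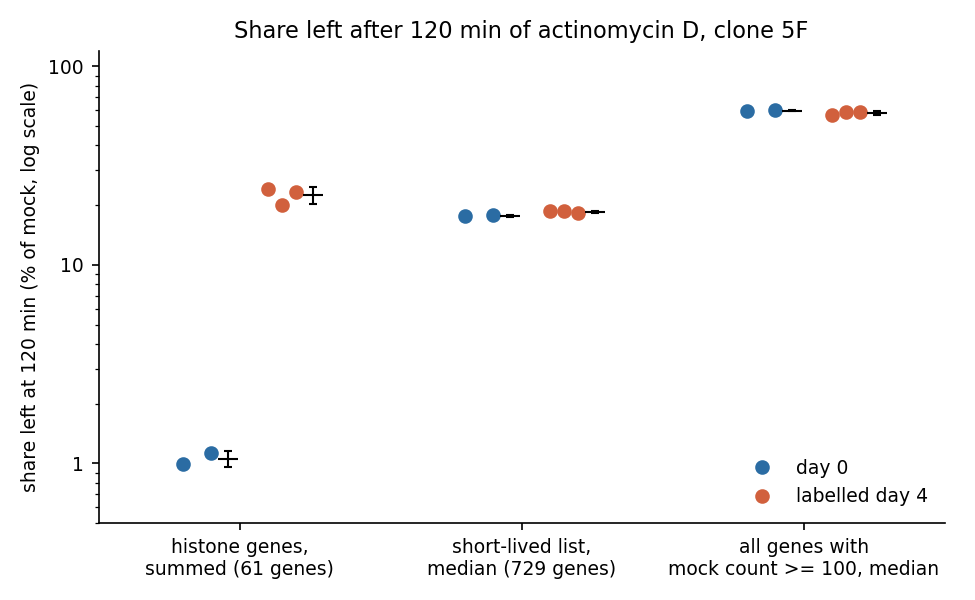
Share left after 120 min of actinomycin D in each library of clone 5F, in percent of the mock mean on a log scale. Points are libraries, blue at day 0 and orange labelled day 4, and horizontal marks with bars are the mean ± SD. The histone sum lies near 1.06% at day 0 and 22.5% labelled day 4, while the medians of the short-lived list and of all genes differ little.

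Among the 65 genes called, 49 were replication-dependent histone genes, of 61 tested and 70 annotated. None of the 61 was called faster, 59 had a positive change and the median change was 3.50, or 3.48 when the 2 genes without a count at 120 min on day 0 were put at their lower bound. The median histone gene kept 0.742% at day 0 and 12.7% in the libraries labelled day 4. By family, the linker histone H1, which binds between nucleosomes, had 6 of 6 genes called slower (median 4.85). The core histones that form the nucleosome had 10 of 15 for H2A (median 3.48), 14 of 17 for H2B (3.89), 9 of 11 for H3 (3.26) and 10 of 12 for H4 (3.45). Near-identical histone genes share reads that the authors' unique mapping left out, so values of individual histone genes are uncertain.

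The stem-loop that ends these mRNAs was looked up because it is rare outside them, as the counts below show. It was searched as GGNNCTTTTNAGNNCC, on the gene's own strand, in the 200 nt after each annotated coding end or, for a gene without one such as Gm12260, around its annotated 3′ end. It was found in 55 of 59 coding histone genes (93.2%) and in 58 of all 14101 coding genes tested (0.411%). Below, the 16 matched bases are in capitals, with 5 bases on either side, in the reference sequence of GRCm38 (RefSeq). Shown are the 3 most abundant histone mRNAs, 2 with a large change, 2 histone mRNAs that were not called and a histone-like pseudogene that was.
Hist1h1a, chr13:23764387-23764412, + strand, slower: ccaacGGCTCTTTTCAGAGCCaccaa
Hist1h1d, chr13:23555782-23555807, + strand, slower: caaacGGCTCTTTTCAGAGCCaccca
Hist1h1b, chr13:21779832-21779857, - strand, slower: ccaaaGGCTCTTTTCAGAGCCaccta
Hist1h4f, chr13:23551286-23551311, - strand, slower: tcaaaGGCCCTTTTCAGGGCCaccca
Hist1h2bb, chr13:23747198-23747223, + strand, slower: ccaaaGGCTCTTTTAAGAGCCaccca
Hist1h2bc, chr13:23684642-23684667, + strand, not called: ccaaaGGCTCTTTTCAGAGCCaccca
Hist1h2bk, chr13:22036295-22036320, + strand, not called: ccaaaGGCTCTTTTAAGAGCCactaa
Gm12260, chr11:58962248-58962273, + strand, slower: ccaacGGCTCTTTTCAGAGCCaccca

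The first matched base lay 25 to 59 nt after the coding end, with a median of 34. Of the 47 coding histone genes called slower, 46 held the motif, and so did 9 of the 12 not called. The same stem-loop letters thus occur in histone mRNAs that were called and in histone mRNAs that were not, as in Hist1h1b and Hist1h2bc. Among coding genes outside the list the motif was found in 3 of 14042 (0.0214%), H2afx, Nova2 and Zfp521, none of them called. H2afx, singled out after its values were seen, encodes the H2A variant that is phosphorylated at DNA breaks, and it kept 60.6% at day 0 and 50.3% in the libraries labelled day 4 (log2 -0.27, standard error 0.16, adjusted p = 0.719, edgeR quasi-likelihood, Benjamini-Hochberg). A match is a description of the sequence and no test of its use.

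Hist1h1a (chr13:23763666-23764406, + strand), a linker histone gene, held 17974, 19052 and 18887 normalized counts in mock libraries at day 0, and 141 and 109 at 120 min. In the libraries labelled day 4 it held 42195, 38021 and 41598 counts in mock and 18995, 15878 and 17380 at 120 min. Only 0.670% ± 0.120 (SD, n = 2) was left at day 0 and 42.9% ± 3.84 (SD, n = 3) in the libraries labelled day 4, with no overlap. The change was 6.00 (standard error 0.14, adjusted p = 1.93e-13, edgeR quasi-likelihood, Benjamini-Hochberg), and from 0 and 120 min alone its half-life came to 16.6 min on day 0 and 98.3 min labelled day 4.

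Hist1h1d, another linker histone gene, held 12092, 12928 and 12449 normalized counts in mock at day 0 and 64.7 and 63.4 at 120 min. In the libraries labelled day 4 these were 28232, 25538 and 28104, and 9309, 7336 and 8239. Its share left thus went from 0.513% to 30.4% (log2 5.89, standard error 0.14). For Hist1h1b the mock counts were 11022, 11456 and 10935 at day 0 and 19479, 17942 and 19973 labelled day 4, against 45.9 and 53.8, and 3540, 3320 and 3829, at 120 min (log2 5.38, standard error 0.12). In both genes the libraries of the 2 days did not overlap at 120 min.

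Among core histones, the H4 gene Hist1h4f held 1809, 1880 and 1582 normalized counts in mock and 3.76 and 5.90 at 120 min on day 0, so that few reads carry its day 0 share. Labelled day 4 it held 3159, 3090 and 3933 in mock and 1103, 777 and 1036 at 120 min (log2 6.67, standard error 0.34). The H2B gene Hist1h2bb changed by 5.74 (standard error 0.18), from 0.416% to 22.4%, with 12.1 and 18.4 counts at 120 min on day 0 and 1376, 1209 and 1156 labelled day 4. Hist1h2bm, also H2B, changed by 6.17 (standard error 0.41), with 1.51 and 2.21 counts at 120 min on day 0 and 249, 186 and 250 labelled day 4. In both, the counts labelled day 4 were all far above those of day 0.

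The H2A pseudogene Hist1h2al and the H4 gene Hist1h4n had no count in either day 0 library at 120 min. With 3 counts per library as the limit that a count of 0 allows, up to 2.10% and 13.0% could have been left. Their shares labelled day 4 were 33.0% and 62.2%, at least 15.7-fold and at least 4.80-fold higher. Of the 49 histone calls, 45 remained with each library left out in turn. Hist1h2ai was lost without replicate 1 of day 0 at 120 min, Hist3h2bb-ps without replicate 3, and Hist1h2al without either, while Hist1h4n was lost without either of these and without replicates 1 or 2 of day 0 mock or replicate 2 of mock labelled day 4. Their adjusted p then reached 0.219, 0.0864, 0.0607 and 0.257 (edgeR quasi-likelihood, Benjamini-Hochberg), in the order given.

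**Figure D2:**
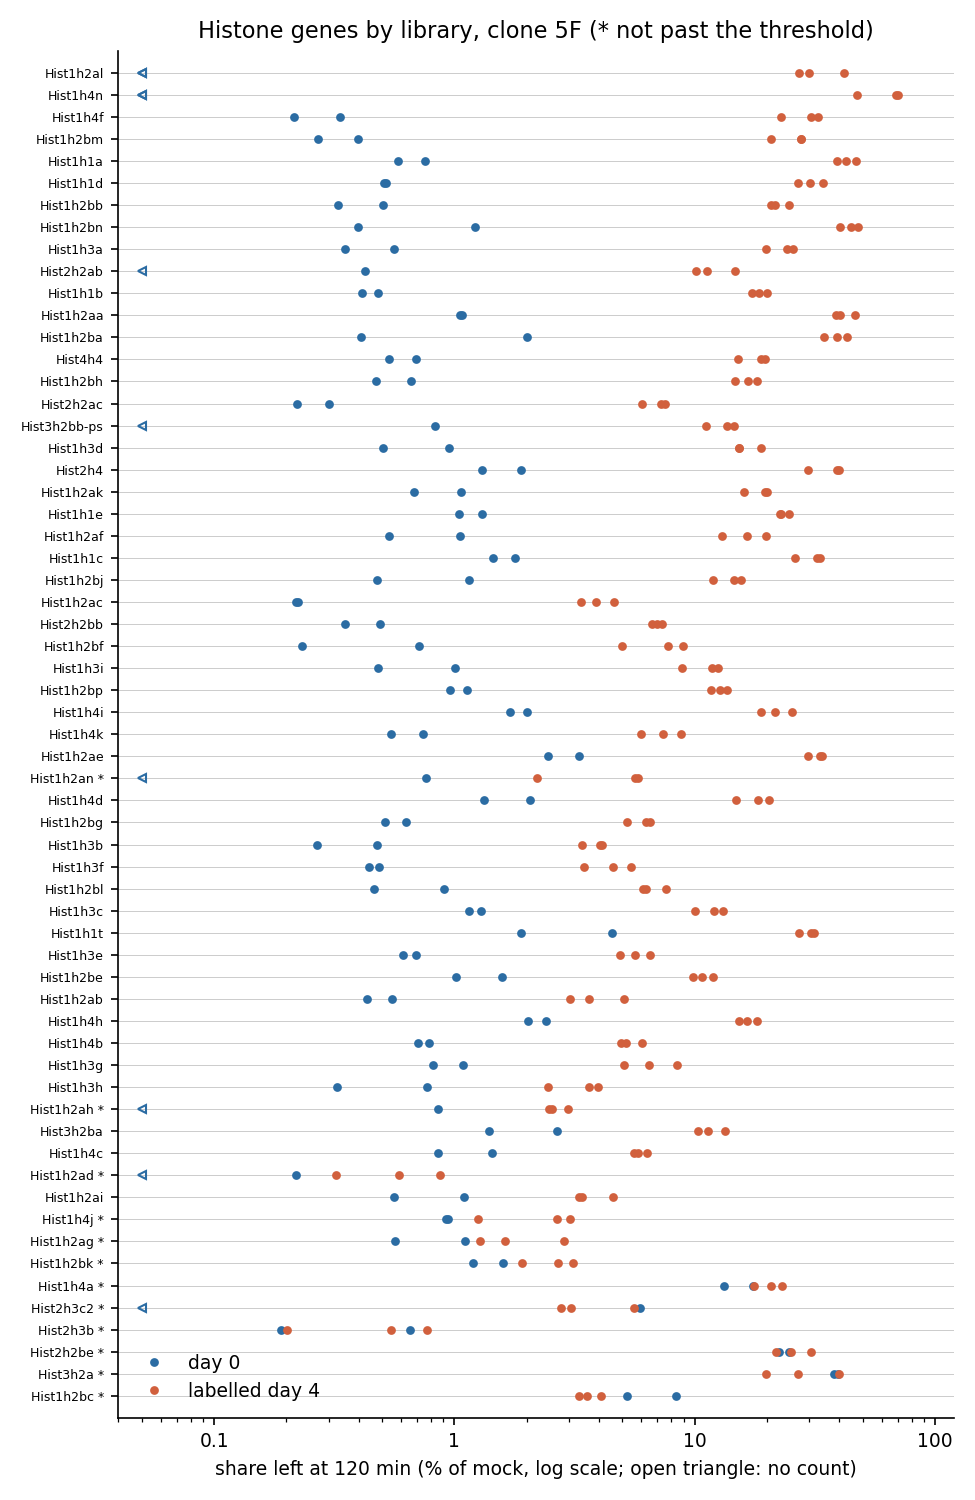
Share left at 120 min, in percent of the mock mean on a log scale, for the 61 histone genes of clone 5F, ordered by the size of the change. Each point is a library, blue at day 0 and orange labelled day 4, open triangles at the left edge mark libraries with no count, and an asterisk marks the 12 genes not past the threshold. The days separate in the upper rows and overlap in the lowest ones, and Hist1h2bc lies lower labelled day 4.

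The 12 histone genes not called had changes from -0.90 to 3.41. Hist1h2bc, an H2B gene, held 825, 914 and 755 normalized counts in mock and 43.7 and 69.3 at 120 min on day 0. Labelled day 4 it held 1139, 1130 and 1718 in mock and 53.9, 44.0 and 47.2 at 120 min, a share of 3.64% after 6.79% at day 0 (log2 -0.90, standard error 0.31, adjusted p = 0.466, edgeR quasi-likelihood, Benjamini-Hochberg). Its counts at 120 min overlapped between the days. The H4 gene Hist1h4a kept 15.4% and 20.5% (log2 0.41), the H2B gene Hist1h2bk 1.40% and 2.58% (0.88), Hist2h2be 23.5% and 25.8% (0.14) and the H3 gene Hist2h3b 0.420% and 0.505% (0.22). Hist3h2a had the highest share of the list at day 0, 38.8%, and 28.9% labelled day 4 (log2 -0.44). Hist1h4a, Hist2h2be and Hist1h2an were the members of this group without the stem-loop motif.

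Mock levels moved with these shares. Of the 61 histone genes, 55 were higher and 0 lower in mock libraries labelled day 4 (edgeR quasi-likelihood, Benjamini-Hochberg), where 6.6% of all genes were higher and 4.98% lower, and their median mock difference was 0.69 on the log2 scale. At 120 min, 54 were higher, where 2.2% of all genes were, with a median level difference of 4.30. The summed normalized histone counts fell from 131790 ± 6156 (SD, n = 3) in mock to 1394 ± 124 (SD, n = 2) at 120 min on day 0, and from 230377 ± 19451 (SD, n = 3) to 51873 ± 4949 (SD, n = 3) labelled day 4. After 120 min the day 0 sum went on to 872 and 602 at 240 and 360 min, and the sum labelled day 4 to 30091 and 14660. Of 12 genes of histone mRNA processing and turnover, 0 changed their share in either direction, at an unadjusted p under 0.05 or by DESeq2 as well, and Slbp, the stem-loop binding protein, had a change of -0.01 (standard error 0.10). Among 22 cyclins and mitotic regulators, 9 were lower and 0 higher in mock libraries labelled day 4. Levels of these mRNAs do not measure how many cells were dividing, and a part of the cell cycle in the histone level was not tested. In bulk RNA, fewer cells of a kind and less RNA per cell cannot be told apart.

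Outside the histone list, 7 genes decayed more slowly. Rpl3 (chr15:80077791-80091868, - strand), a protein of the large ribosomal subunit, held 1830, 1920 and 1720 normalized counts in mock and 180 and 172 at 120 min on day 0. Labelled day 4 it held 4220, 3648 and 4224 in mock and 930, 986 and 1152 at 120 min. Its share left of 9.64% ± 0.319 (SD, n = 2) and 25.4% ± 2.86 (SD, n = 3) did not overlap between the days. The change was 1.40 (standard error 0.14, adjusted p = 1.51e-05, edgeR quasi-likelihood, Benjamini-Hochberg), and Rpl3 was the only one of the 7 that remained with each library left out in turn. Of 87 cytosolic ribosomal protein genes, it was the 1 called slower by edgeR, with 0 faster, while DESeq2 called 2 slower and 0 faster, and the median share left was 76.2% at day 0 and 76.9% labelled day 4.

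Gadd45g, a growth arrest gene induced by stress, held 141, 146 and 135 normalized counts in mock and 2.26 and 2.95 at 120 min on day 0, and 233, 197 and 238, and 19.7, 23.5 and 20.9, labelled day 4. Its share rose from 1.85% to 9.61% (log2 2.33, standard error 0.38, adjusted p = 0.00591, edgeR quasi-likelihood, Benjamini-Hochberg), on very low day 0 counts, and the call was lost without replicate 1 or without replicate 3 of day 0 at 120 min, where its adjusted p reached 0.148. Ifrd1, a regulator whose mRNA carries an upstream reading frame, held 3101, 2874 and 3129 counts in mock and 609 and 637 at 120 min on day 0, and 6070, 6231 and 5953, and 1917, 1742 and 1632, labelled day 4. Its share rose from 20.5% to 29.0% (log2 0.50, standard error 0.10), and its level was higher in mock and at 120 min. Nemp1, a nuclear envelope protein, rose in share from 20.6% to 29.0% (log2 0.49, standard error 0.09) at a mock level that was nearly the same on both days, 1464, 1489 and 1466 against 1494, 1487 and 1485. At 120 min it held 313 and 294 counts on day 0 and 436, 434 and 424 labelled day 4, without overlap.

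Retsat, a retinol saturase, differed in kind. Its mock counts were 420, 368 and 424 at day 0 and 272, 278 and 278 labelled day 4, while at 120 min it held 144 and 158, and 152, 179 and 172. The share of 37.5% and 60.8% (log2 0.69, standard error 0.14) thus came with a lower mock level and a level at 120 min that was not called (log2 0.15). The other 2 slower genes lie in histone clusters. Gm12260 (chr11:58961812-58962222), an unprocessed pseudogene with the stem-loop motif beyond its annotated end, changed by 4.21 (standard error 0.65), from 3.01 and 0.737 counts at 120 min on day 0 to 119, 80.2 and 136. Gm20628 (chr3:96267075-96270289, - strand), annotated as antisense and overlapping Hist2h2bb and Hist2h3b, changed by 3.85 (standard error 0.73). Its mean mock count at day 0 was 309.5, against 10683 for Hist2h2bb and 793 for Hist2h3b. Whether its reads come from these genes was not tested. Of the 11 fits that leave out 1 library, Gm20628 lost its call in 5, Ifrd1 in 8, Nemp1 in 7 and Retsat in 9, either library of day 0 at 120 min among those left out for each, and Gm12260 lost it without replicate 3 of day 0 at 120 min (adjusted p = 0.120, edgeR quasi-likelihood, Benjamini-Hochberg). Under scaling by the spike-ins of each library, Ifrd1, Nemp1 and Retsat were not called. By limma-voom 2 of the 7 remained, Rpl3 and Nemp1, and with a robust prior Gm12260 and Gm20628 were not called.

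**Figure D3:**
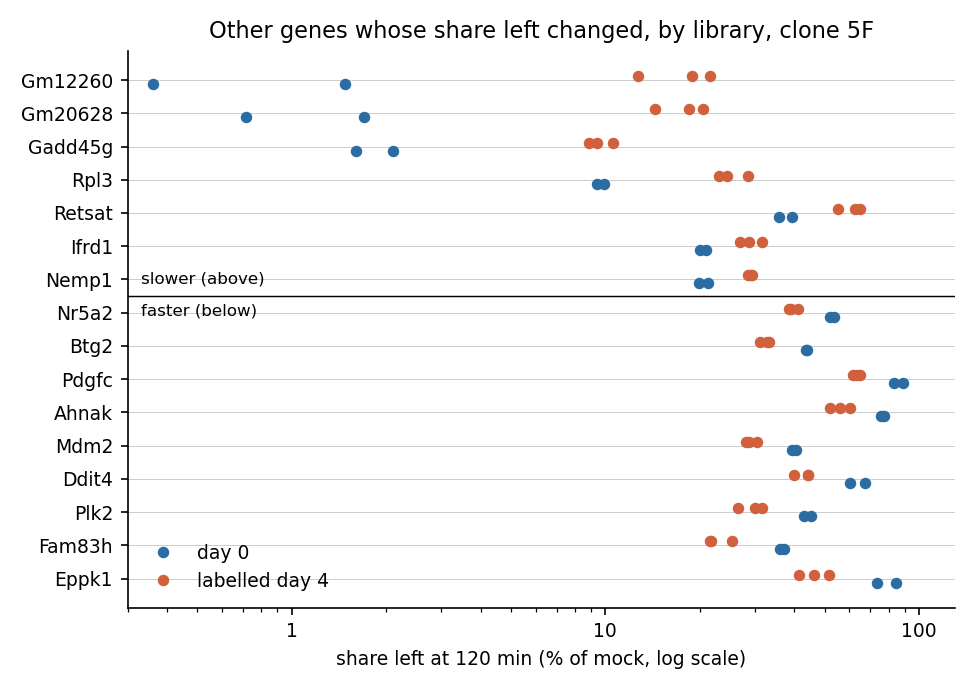
Share left at 120 min, in percent of the mock mean on a log scale, of the 7 slower genes outside the histone list and the 9 faster genes in clone 5F. Each point is a library, blue at day 0 (n = 2) and orange labelled day 4 (n = 3). In each of the 16 genes the days do not overlap, and the shifts of the faster genes are smaller than those of Gm12260, Gm20628, Gadd45g and Rpl3.

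The 9 faster genes changed by -0.42 to -0.76. Mdm2, the ubiquitin ligase that restrains p53, held 5428, 5137 and 5283 normalized counts in mock and 2148 and 2083 at 120 min on day 0, and 6185, 6303 and 5817, and 1710, 1859 and 1756, labelled day 4. Its share fell from 40.1% to 29.1% (log2 -0.46, standard error 0.08, adjusted p = 0.0125, edgeR quasi-likelihood, Benjamini-Hochberg). Plk2, a polo-like kinase, held 1158 and 1102 counts at 120 min on day 0 and 992, 939 and 830 labelled day 4, and its share fell from 44.1% to 29.3% (log2 -0.59, standard error 0.11). Ddit4, an inhibitor of mTORC1, had almost the same mock counts on both days, 747, 762 and 787 against 781, 773 and 768. At 120 min it held 461 and 517, and 309, 344 and 342, so that its share fell from 63.8% to 42.9% (log2 -0.57, standard error 0.10). For the antiproliferative gene Btg2, with 686 and 683 counts at 120 min on day 0 and 549, 540 and 511 labelled day 4, the share fell from 43.7% to 32.4% (log2 -0.43, standard error 0.08). In these 4 genes the counts at 120 min did not overlap between the days.

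Mdm2, Plk2, Ddit4 and Btg2 are all known targets of p53, the transcription factor activated by DNA damage. In the list of 19 p53 targets, 4 were faster and 0 slower, 17 had a negative change and the median change was -0.17, with a median share of 60.1% at day 0 and 44.7% labelled day 4. At an unadjusted p under 0.05 there were 0 positive and 6 negative changes in the list, against 663 and 738 over all 17328 genes. Over all genes the faster share was 0.0519% and the median -0.01. Members not called included Bbc3 (log2 -0.56), Sesn2 (-0.40) and Cdkn1a (-0.37), and Fas (1.08) and Rrm2b (0.29) had the opposite sign. In mock libraries 3 of the 19 were higher and 0 lower, where 6.6% of all genes were higher and 4.98% lower. At 120 min 0 were higher and 3 lower, where 2.2% of all genes were higher and 1.64% lower.

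The other faster genes were of a different kind. Ahnak, a very large scaffold protein, Eppk1, a plakin of the cytoskeleton, and Pdgfc, a growth factor, had higher mock levels labelled day 4, by 0.92, 1.32 and 0.83 on the log2 scale, and also higher levels at 120 min. Their shares fell from 76.4% to 56.1%, from 78.9% to 46.5% and from 85.8% to 63.3%. Fam83h, which organises keratin filaments, fell from 36.6% to 22.9%. Nr5a2, a nuclear receptor of the pluripotency network, was lower in mock (log2 -0.21) and fell from 52.9% to 39.5% (log2 -0.42, standard error 0.08). All 9 kept their sign with each library left out, but 0 of the 9 calls remained without replicate 3 of day 0 at 120 min, and single calls were lost in 3 (Fam83h) to 10 (Btg2 and Nr5a2) of the 11 fits that leave out 1 library. All 9 remained without replicate 1 labelled day 4 at 120 min. Replicate 3 of day 0 had the highest share of mitochondrial rRNA of the 11 libraries (1.69%) and replicate 1 labelled day 4 the lowest (0.280%). With all 23 libraries of clone 5F in the fit, 3 of the 9 remained (Mdm2, Plk2 and Nr5a2). Under scaling by the spike-ins of each library, the median of all genes moved to -0.19 and only Plk2 of the 9 remained.

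**Figure D4:**
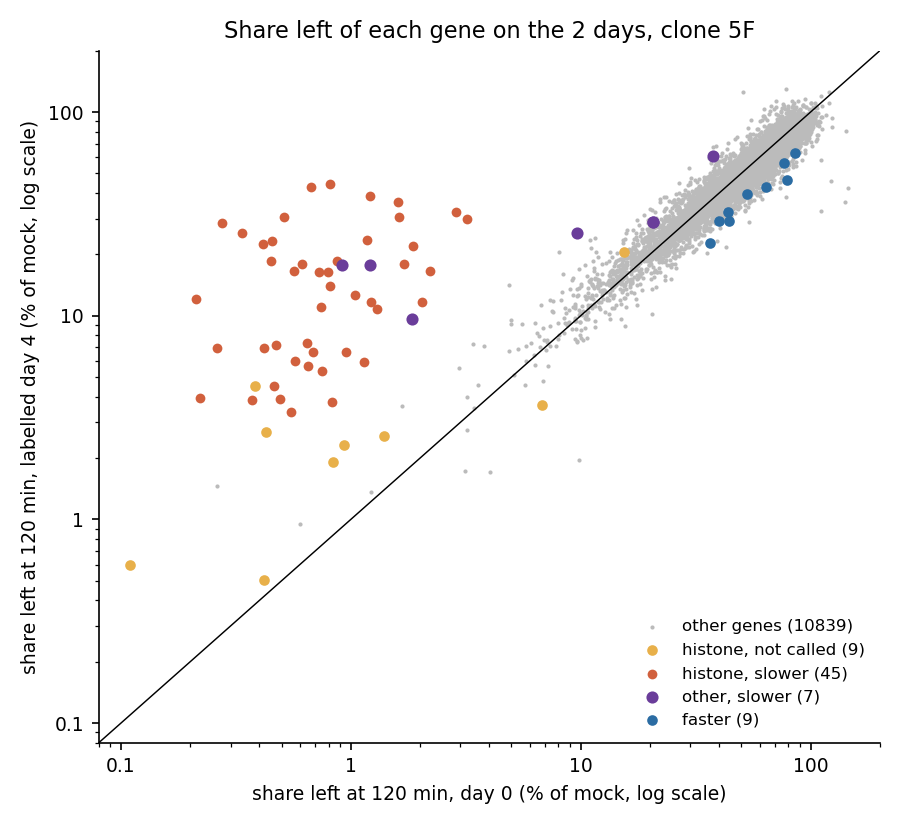
Share left at 120 min labelled day 4 against that at day 0 for the genes of clone 5F with a mean mock count of at least 100, both in percent on log scales, with the line of equality. Points are genes and colours give the calls. Histone genes (orange, slower, and yellow, not called) form a cloud at the left above the line, and nearly all other genes follow the line.

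The typical short-lived mRNA outside the histones differed little between the days. The list was drawn from libraries that do not enter the comparison, those of the Aven-/- clone 7E at day 0, as genes with at most 25% left and a mean mock count of at least 100. It holds 785 genes, 56 of them histones. Of the other 729, 5 were slower and 0 faster (edgeR quasi-likelihood, Benjamini-Hochberg), namely Rpl3, Ifrd1, Nemp1, Gm12260 and Gm20628. Among all 17267 genes outside the histones, 7 were slower and 9 faster, so the list held 5 of these 7. At an unadjusted p under 0.05 there were 88 positive and 33 negative changes in the list, against 610 and 737 among the 17267. DESeq2 called 6 slower and 3 faster in the list, against 14 and 27. The median change was 0.07, and 448 were positive. By library, the median share of the list was 17.6% and 17.8% at day 0, and 18.7%, 18.6% and 18.3% labelled day 4. The libraries did not overlap, but the means of 17.7% ± 0.156 (SD, n = 2) and 18.5% ± 0.189 (SD, n = 3) differed by 0.827 percentage points only (exact permutation p = 0.2, the smallest possible), and with each library's own spike-ins the order was opposite, 19.2% and 17.7%.

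Binned by the share left in clone 7E at day 0, the median change in clone 5F outside the histones was 0.12 for the 85 genes with at most 10% left and 0.06 for the 644 genes with 10% to 25%. It was 0.00 for 2918 genes with 25% to 50%, -0.01 for 4709 genes with 50% to 75% and -0.03 for 2425 genes above. Slower genes numbered 2, 3, 1, 0 and 0 in these bins. The gradient over the bins was thus far smaller than the histone median of 3.50.

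Among short-lived transcription factors, Myc, a driver of growth, held 1757, 2016 and 1937 normalized counts in mock and 225 and 259 at 120 min on day 0, and 1937, 2018 and 2222, and 152, 243 and 252, labelled day 4. The days overlapped, with shares of 12.7% and 10.5% (log2 -0.28, standard error 0.20). For Jun, a subunit of AP-1, the counts were 329, 371 and 358 in mock and 21.8 and 22.8 at 120 min on day 0, and 545, 521 and 582, and 46.0, 41.0 and 65.1, labelled day 4. Its shares of 6.34% and 9.23% did not pass the test (log2 0.54, standard error 0.25, adjusted p = 0.607, edgeR quasi-likelihood, Benjamini-Hochberg), while its level was higher in mock (0.64) and at 120 min (1.18). Ier2 had a change of -0.34, Fos -0.07, Egr1 0.28 and Klf4 -0.48, none of them called. Over the 25 immediate early transcription factors tested, 0 were called slower and 0 faster by edgeR or by DESeq2. At an unadjusted p under 0.05 there were 2 positive and 4 negative changes, the median was -0.13, and the median share was 16.7% at day 0 and 15.2% labelled day 4.

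Feedback inhibitors of signalling gave a like picture. Dusp6, a phosphatase that shuts off ERK, held 4000, 3963 and 4199 normalized counts in mock and 291 and 271 at 120 min on day 0. Labelled day 4 it held 3750, 3756 and 3562, and 276, 289 and 272. The shares were 6.94% and 7.56%, and the counts at 120 min lay within one range (log2 0.12, standard error 0.09). Of the 30 members, 0 were called in either direction by edgeR or DESeq2 (0 positive and 3 negative at an unadjusted p under 0.05), with a median change of -0.07 and median shares of 16.7% and 14.9%. Of 23 mRNA-destabilizing and antiproliferative regulators, 1 was slower (Gadd45g) and 2 faster (Plk2 and Btg2), 20 were negative and the median was -0.15. At an unadjusted p under 0.05, 1 of them was positive and 6 negative. Txnip, an inhibitor of thioredoxin and of glucose uptake, kept 16.4% and 14.6% (log2 -0.17) while its mock level was higher by 1.43.

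The most abundant short-lived mRNAs differed little. Jade1, a subunit of a histone acetyltransferase complex, held 26653, 25466 and 25300 normalized counts in mock and 3765 and 3904 at 120 min on day 0, and 22667, 23088 and 22800, and 3476, 3288 and 3504, labelled day 4. Its share left was 14.9% and 15.0% (log2 0.01, standard error 0.07). The kinase Sgk1 (log2 -0.09), the amino acid transporter Slc38a2 (-0.13), the receptor Epha2 (-0.15), the ligase Topors (-0.02), the growth factor Fgf4 (-0.09) and the splicing kinase Clk1 (0.02) were not called either. Sox2, a core pluripotency factor, kept 22.2% and 19.2% (log2 -0.21, standard error 0.08). The noncoding RNAs Gm26917 (-0.32) and Gm42418 (-2.32) completed the 10 highest, and Gm42418 had 1782 and 14884 counts in the 2 day 0 libraries at 120 min, so that its difference was within the spread between them (adjusted p = 0.452, edgeR quasi-likelihood, Benjamini-Hochberg).

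Further lists were described by the same counts. Of 22 pluripotency transcription factors, 0 were slower and 1 faster (Nr5a2), 17 were negative and the median was -0.21, with median shares of 58.5% and 48.5%. At an unadjusted p under 0.05 there were 0 positive and 10 negative changes among the 22, against 663 and 738 over all 17328 genes. DESeq2 called 0 slower and 1 faster. Nanog kept 52.9% and 47.1% (log2 -0.17). Of 20 endoplasmic reticulum chaperones, 0 were called by edgeR in either direction, but 19 were positive, 10 were positive at an unadjusted p under 0.05, DESeq2 called 1 slower, and the median was 0.21. Calr kept 66.0% and 74.7% (log2 0.18, standard error 0.07), Pdia4 64.6% and 76.4% (0.24) and the chaperone Hspa5 50.9% and 63.9% (0.33). In mock, 10 of the 20 were lower and 1 higher, where 4.98% of all genes were lower and 6.6% higher. Of 15 snoRNA host and nonsense-mediated decay transcripts, 0 were called by edgeR or DESeq2 (3 positive and 0 negative at an unadjusted p under 0.05) and the median was 0.05. Of 348 zinc finger protein genes, a large short-lived family, 0 were called by edgeR or DESeq2 (26 positive and 12 negative at an unadjusted p under 0.05), with median shares of 25.1% and 25.9%. Of 9 genes of the SKI complex and partners, 0 were called by either tool (1 positive and 0 negative at an unadjusted p under 0.05), with Ttc37 at 0.01 and Wdr61 at 0.23. Of the cyclins and mitotic regulators, edgeR called 0 of 22 (0 positive and 2 negative at an unadjusted p under 0.05) and DESeq2 1 faster.

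A level at 120 min can differ with or without a change in the share. At 120 min, 381 genes were higher in the libraries labelled day 4 (2.2% of those tested) and 285 lower (1.64%). Of the 381, 50 were called higher in mock and slower too, 234 higher in mock only, 5 slower only and 92 neither. Histone genes made up 54 of the 381. Integrated stress response genes, which ATF4 induces, were mostly higher in mock with no called change in share. Of 19, 13 were higher in mock, where 6.6% of all genes were, and 8 were higher at 120 min. Of these 8, 7 had a higher mock level and no called change in share. Of the 19, 1 was slower (Ifrd1), 1 faster (Ddit4) and the median change in share was -0.10. Atf4 itself was higher by 0.82 in mock and by 1.04 at 120 min, with shares of 27.6% and 32.3% (log2 0.22, standard error 0.07, adjusted p = 0.428, edgeR quasi-likelihood, Benjamini-Hochberg). Ddit3 was higher by 1.43 and 1.62, Chac1 by 1.75 and 2.16, and Trib3 by 0.98 and 1.50, none of them with a called change in share.

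In the methods, the half-life of each gene is taken from a straight line through ln(normalized count + 1) over 0 to 360 min. At day 0 this line predicted at least 2 times the observed share at 120 min for 2493 of the 17328 genes (14.4%), and labelled day 4 for 2408 (13.9%). For histones these were 57 and 42 of 61, with a median ratio of predicted to observed share of 24.4 and 2.72. For the short-lived list without histones they were 527 and 545 of 729, with ratios of 2.39 and 2.38, although that list was itself drawn on a low share at 120 min in the other clone. The histone half-life from 0 and 120 min had a median of 17.0 min at day 0 and 40.3 min labelled day 4, where the line gave 49.1 and 78.5 min. For the other short-lived genes these were 47.9 and 49.8 min, against 92.3 and 98.7 min by the line. Restricted to the genes that the line described badly in clone 7E at day 0, 596 outside the histones, 4 were slower and 0 faster in clone 5F, with a median change of 0.09.

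Tested over the whole line with 23 libraries of clone 5F, an alternative added after seeing the data, 24 of 17901 genes were slower (0.134%) and 12 faster (0.067%), with 20 of 61 histone genes among the slower. The histone median was then 1.50 per 120 min instead of 3.50. Hist1h1a changed by 1.94 per 120 min on the line (adjusted p = 0.00949, edgeR quasi-likelihood, Benjamini-Hochberg). Hist1h1b was not called (1.40), nor were Rpl3 (0.11), Gadd45g (0.20) or Mdm2 (0.08, the opposite sign of its early change). The line half-life of Rpl3 was 87.6 min at day 0 and 91.7 min labelled day 4, whereas 0 and 120 min alone gave 35.6 and 60.6 min. For Gadd45g the line predicted 18.4 times the observed share at day 0.

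**Figure D5:**
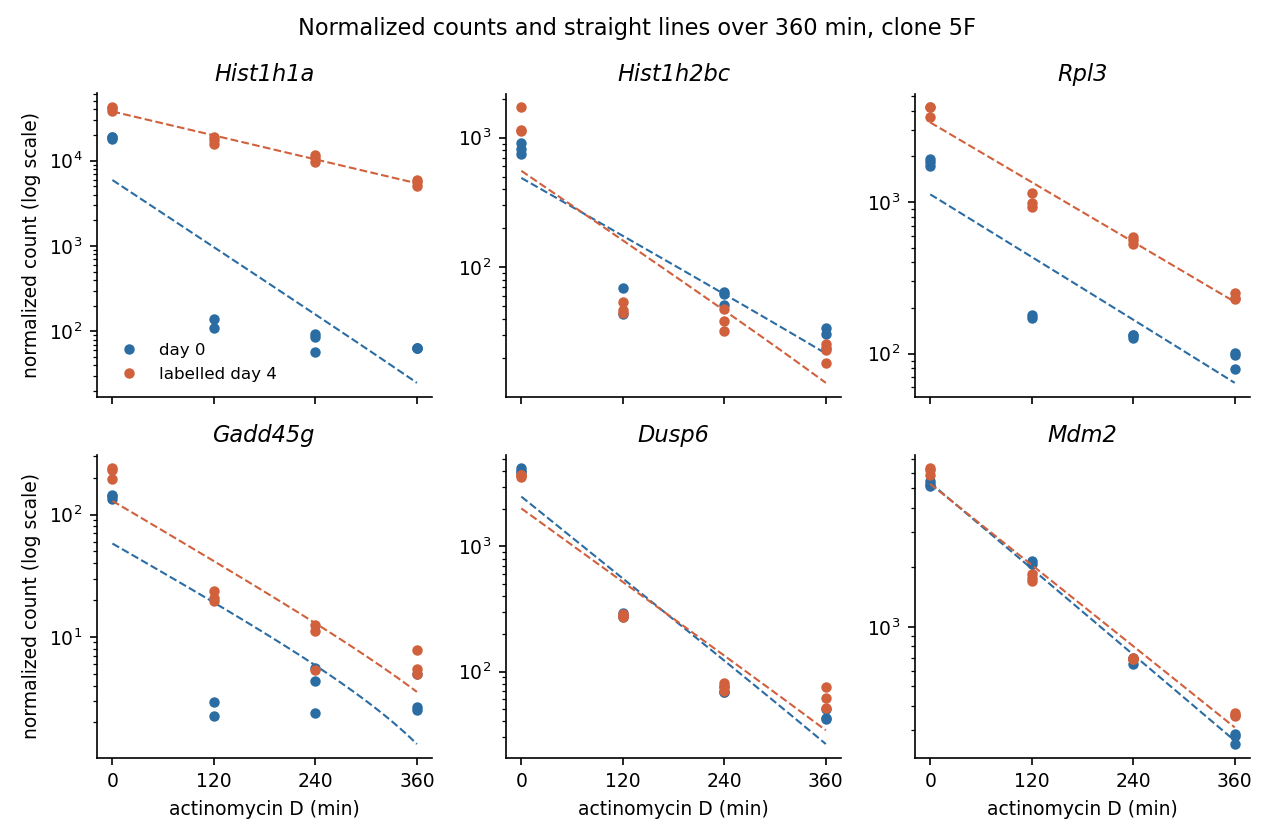
Normalized counts on a log scale against min of actinomycin D for 6 genes of clone 5F, with the straight lines fitted over 360 min (dashed). Points are libraries, blue at day 0 and orange labelled day 4. The day 0 points of Hist1h1a, Rpl3 and Gadd45g at 120 min lie far below their line and the course then flattens, while the points of Mdm2 stay near it.

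The most similar experiment is that of clone 7E, with the same times (12 libraries at 0 and 120 min). Its half-life labels give Rosa26Cre-ERT2/BirA-V6, tagged Skiv2l and Aven-/- with no floxed allele, whereas the labels of other RNA-seq libraries of this clone add Skiv2l fl/fl, and the methods list an Aven-/- line with tagged and floxed Skiv2l. There 50 of 61 histone genes were slower and 0 faster, where 1.16% of all genes were slower and 0.923% faster, and their median change was 2.37. The clones differed, by the interaction of clone, day and time over 23 libraries, in 14 of 18206 genes whose signed change was more positive in clone 5F (0.0769%) and 1 whose change was more negative (0.00549%). Of the 14, 13 were histone genes, and the other was Btg2, which changed by -0.43 in clone 5F and -1.05 in clone 7E. The shares of the clones stood apart at day 0. The summed histone share was 3.30% ± 0.262 (SD, n = 3) in clone 7E and 1.06% ± 0.0939 (SD, n = 2) in clone 5F at day 0, but 22.1% ± 1.99 (SD, n = 3) and 22.5% ± 2.15 (SD, n = 3) labelled day 4. For Hist1h1a the shares were 5.69% and 0.670% at day 0, and 42.7% and 42.9% labelled day 4. Rpl3 changed by 1.22 in clone 7E, Ifrd1 by 0.73 and Nemp1 by 0.54, each called there too, whereas Gadd45g changed by 0.35 and was not called. All 9 faster genes had a negative change in clone 7E, with Plk2 at -1.16, Ddit4 at -0.97 and Mdm2 at -0.91.

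SKIV2L binding was taken from the authors' deposited table of CRAC, which maps RNA crosslinked to a tagged protein, as the ratio of SKIV2L over MTR4, SKIV2L and XRN1 together, in pooled libraries. The 50 histone mRNAs listed there had a median of 0.534, against 0.267 over 7231 tested genes and 0.155 over the short-lived list without histones. Rpl3 had 0.420, Ifrd1 0.490 and Nemp1 0.122 in the authors' deposited table. The 9 faster genes had a median of 0.203 there, from 0.0754 for Btg2 to 0.542 for Eppk1, with Mdm2 at 0.264 and Plk2 at 0.144. The histone median thus lay above the median of all genes. Of the 3 slower genes outside the histones with a value there, Rpl3 and Ifrd1 lay above it and only Nemp1 below. The faster genes lay on both sides of it.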

How the data were processed

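The authors depleted rRNA, prepared TruSeq v2 libraries, aligned reads to GRCm38 with STAR, counted uniquely mapped reads per gene, and deposited the raw counts. The authors' deposited SKIV2L binding is a ratio of pooled CRAC counts. The sample labels and the methods state different doses of actinomycin D (5 µg/µl and 5 µM). The authors' deposited half-lives were not used.

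The 11 libraries were fitted by edgeR 4.0.16 in R 4.3.3 (quasi-likelihood test, filterByExpr), with DESeq2 1.42.0 and limma 3.58.1 as alternatives. As in the methods, size factors were taken per time point, here over the libraries of both clones. Counts at 120 min were then multiplied by 1 factor of mRNA per spike-in relative to 0 min (0.657, from 34 ERCC sequences with a mean above 50 counts), where the methods state a division. Multiplying makes counts fall as mRNA per spike-in falls. The direction sets shares, levels and half-lives but cancels in the change in share and in comparisons between days. Unnamed rows took at most 0.0141% of a library, and 0 columns of per-sample values were unused. Between replicates, chi-square per gene was at least 2.59. Symbols came from Gencode M21.

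Members and lists were chosen with earlier results of these data known. Named genes were the 12 largest changes in each direction that had a mean count of 100 or more and 1 sign with each library left out (at most 5 histones), the 3 most abundant histone genes, the 10 most abundant short-lived genes, fixed regulators, and up to 4 called members per list. Other members given by name were singled out after their values were seen. The fit was tested on simulated data of 17053 genes. Changes of 1 log2 and of 2 were each given to 100 genes with a mean count of at least 100. The fit recovered 94.0% and 100% of these, with 14 false calls. Counts were drawn independently, without deviations shared by the genes of a library, so recovery in the real data can be lower, as it can for genes with fewer counts.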

Additional observations from a re-analysis of the deposited data

Results flagged for a closer look

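The change in share left differed between clone 5F and clone 7E in 15 genes, tested by the interaction of clone, day and time with edgeR's quasi-likelihood test and Benjamini-Hochberg adjustment. Among linker histone genes, the change was larger in clone 5F by 3.09 on the log2 scale for Hist1h1a, by 2.90 for Hist1h1d, by 2.63 for Hist1h1e, by 2.61 for Hist1h1b and by 1.95 for Hist1h1c. Among core histone genes it was larger by 2.75 for Hist1h3a and for Hist2h4, by 2.21 for Hist1h2ak, by 2.08 for Hist1h3d, by 2.05 for Hist1h2bb, by 1.56 for Hist4h4, by 1.48 for Hist2h2bb and by 1.45 for Hist1h4d. The share of each of these 13 histone genes at day 0 was lower in clone 5F, from 0.416% to 1.70%, than in clone 7E. Clone 7E was labelled Aven-/-, and the clones also differ in their labelled Skiv2l and Rosa26 alleles, for which the labels of clone 7E differ between its libraries, so these cannot be told apart.

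Outside the histones, Btg2 differed by 0.61, since its share fell from 44.9% to 21.7% in clone 7E and from 43.7% to 32.4% in clone 5F. Nlrp12 differed by -3.96, with shares of 8.71% and 90.9% in clone 7E and of 21.5% and 13.9% in clone 5F.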

How the results depend on the processing

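In every alternative run on 0 and 120 min, the number of slower histone genes stayed within 1.5 times of 49. With 1 library left out, 46 to 50 histone genes were slower, the summed share was 0.992% to 1.12% at day 0 and 21.7% to 23.7% labelled day 4, and 51 to 55 histone genes were higher at 120 min. The slower genes in all numbered 48 to 60 and the faster genes 1 to 29 with 1 library left out, the last without replicate 1 labelled day 4 at 120 min. Faster genes numbered 1 with each library's own spike-ins, which moved the median of all genes to -0.19, and 27 by DESeq2. Without a filter 87 genes were slower and 139 faster. TMM scaling lost Ifrd1 among the other slower genes, and the replicate block lost Retsat and Btg2. A straight line over 360 min called 24 genes slower, 20 of them histones.

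Levels at 120 min depended most on the libraries: 126 to 679 genes were higher and 44 to 758 lower with 1 left out (679 and 758 without replicate 1 labelled day 4, 126 and 44 without replicate 1 of day 0), and own spike-ins gave 187 and 4239 with a median of -0.26. Between clones, 9 to 16 genes had a more positive and 0 to 1 a more negative change in clone 5F with 1 library left out (9 to 16 histones among the former), own spike-ins gave 9 and 13, and a mean of at least 50 counts left 0 more negative.

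The median share of all genes was 64.9%, 58.6% and 59.1% at day 0 with own spike-ins, a factor from clone 5F alone and all genes as the total, and 55.9% labelled day 4 with own spike-ins (59.5% to 60.2% and 58.0% to 59.3% with 1 library left out). For short-lived genes these were 19.2%, 17.3% and 17.5% at day 0 and 17.7%, 18.1% and 18.3% labelled day 4 (17.6% to 17.8% and 18.5% to 18.6%). A limit of 10% in place of 25% left 2 slower genes, and one of 40% gave 3 faster.

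Replicate numbers were not used to pair the libraries in the main fit. Of 15 correlations between deviations of same-numbered libraries, 9 were over 0.1, and they ranged from -0.29 to 0.43. Between the days at 120 min they were 0.429 for replicate 1 and 0.329 for replicate 3. Replicate 1 also had the lowest mitochondrial rRNA at 120 min on both days (0.579% and 0.280%). Whether the numbers mark a shared batch was not tested. With replicate number as a block, 55 genes were slower and 12 faster, 390 higher and 309 lower at 120 min, and 13 and 1 differed between clones. Over the named genes, 874 alternative values kept their side of the threshold, 129 lost it, 4 gained it and 0 changed direction. With 2 libraries at 120 min on day 0, leaving out 1 assumes that the other varies like the remaining groups, and shares under 1% rest on few counts.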
